A study of Mus musculus with 6 samples.

Results

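The genes encoding the nuclear receptors that bind the ROR response element (RORE), a short DNA element of clock promoters, were examined in 3 mouse fibroblast lines. They comprised Nr1d1 and Nr1d2, which encode the NR1D repressors, and Rora and Rorb, which encode ROR activators. These 4 genes were taken by name from the 27179 genes of each count table. Which of these receptor transcripts each line holds is the question of the comparison. Of the 4 genes, 3 reached a mean of 100 normalized counts, the level needed for the main test, and all 4 reached a mean of 10.

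The study sequenced poly-A RNA of immortalized mouse embryonic fibroblast (MEF) lines of strain C57BL/6, with 2 independent RNA preparations per line and 6 libraries in all. Cells were growing, at around the same confluence, in DMEM with fetal bovine serum, and no synchronizing step is described for these libraries. The Per/Nr1d_KO line lacks Per1, Per2, Nr1d1 and Nr1d2, the Cry/Per_KO line lacks Cry1, Cry2, Per1 and Per2, and the Cry/Per/Nr1d_KO line lacks all 6 of these genes. All 3 lines therefore share the loss of Per1 and Per2, and no line with intact clock genes was analysed here. The Cry/Per/Nr1d_KO line is 1 clone derived from Cry/Per_KO cells with a CRISPR lentivirus, so a clone and its genotype cannot be told apart. The Per/Nr1d_KO line was established in earlier work, and its origin and its genotype cannot be told apart either. The Nr1d1 and Nr1d2 alleles of the Cry/Per/Nr1d_KO line carry small insertions or deletions that shift the reading frame. Transcripts from such alleles are still counted, so the level of Nr1d1 or Nr1d2 RNA does not measure NR1D protein.

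NR1D1 and NR1D2 (REV-ERB alpha and beta) bind the RORE and recruit the NCOR1 corepressor with HDAC3, which lowers transcription. RORA and RORB bind the same element and recruit coactivators, so the balance of the 2 families sets the output of genes such as Arntl, which encodes the clock activator BMAL1. Nr1d1 and Nr1d2 are themselves driven by CLOCK-BMAL1 through E-boxes and by the PAR bZIP factors through D-boxes. NR1D binds heme as a ligand, and sterols are ligands of RORs.

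Genotype and file name disagreed for 4 of the 6 libraries. The pair labelled Cry/Per/Nr1d_KO carries counts named for the line without Cry and Per, and the pair labelled Cry/Per_KO carries counts named for the sextuple knockout. Groups here follow the genotype labels. If the names of the counts are right instead, every value given for one of these groups belongs to the other, each difference between the 2 changes sign, and each difference of Per/Nr1d_KO cells from one of them becomes that from the other. Labels and names alone do not settle which is right. The study reports lower Arntl, Cry1, Nr1d1, Nr1d2 and Dbp RNA in Cry/Per_KO than in Cry/Per/Nr1d_KO cells. That is the direction given by the names of the counts and not by the genotype labels. The names of the counts may well be the right ones, and the study's account of its lines was not used to assign groups here, so no difference between these 2 groups is to be read as the direction of a genotype. The Per/Nr1d_KO libraries are not affected by this.

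The promoter windows in a RefSeq table (GRCm38.p6, 250 bases before to 50 after a transcript start) were searched on both strands for 2 forms of the RORE, TAGGTCA and TGGGTCA, because the receptors compete there. The RevDR2 element, a repeat of AGGTCA with 2 bases between, the half-site AGGTCA, which every TAGGTCA contains, E-boxes (CACGTG and the variant CACGTT) and the D-box (TTANGTAA) were searched too. Of 10 known RORE target genes, 8 had a window and 4 of these held TAGGTCA. Of all 32851 windows, 2.61% held this motif. The first share is per gene, some genes have several windows, and the genes were listed as known targets, so the 2 shares are not comparable. The 30-base stretches of the 4 genes are shown because they hold the element itself, in capitals on the strand of the gene. TGACCTA is the same element read on the other strand.
Arntl, chr7:113207529-113207558, plus strand: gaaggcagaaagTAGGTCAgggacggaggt
Nfil3, chr13:52981034-52981063, minus strand: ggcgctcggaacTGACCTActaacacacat
G6pc, chr11:101367650-101367679, plus strand: tcagggctggatTGACCTAcagactgaatc
Fabp7, chr10:57784740-57784769, plus strand: ctgggaggatctTGACCTActccgctaacc

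Neither RORE form, nor the RevDR2 element, which 3 of all windows hold, was found in the windows of Nr1d1, Nr1d2, Rora or Rorb. The Nr1d1 window held 1 CACGTT, starting 28 bases before the transcript start, and the Nr1d2 window held 1 half-site, starting 77 bases before it. Cry1, the RORE target and clock repressor gene whose level is described with these receptors, held a CACGTG at 60 and a CACGTT at 79 bases before its start. TGGGTCA occurs in 3.98%, CACGTT in 4.68%, CACGTG in 7.15%, AGGTCA in 16.3% and TTANGTAA in 2.32% of all windows. The stretches of 80 bases around these matches are shown so that the 3 promoters can be compared, with the matches in capitals. AACGTG is CACGTT read on the other strand.
Nr1d1, chr11:98775386-98775465, minus strand: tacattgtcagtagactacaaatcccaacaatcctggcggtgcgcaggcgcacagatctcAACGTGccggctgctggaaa
Nr1d2, chr14:18239141-18239220, minus strand: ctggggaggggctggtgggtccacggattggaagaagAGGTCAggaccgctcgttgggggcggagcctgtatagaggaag
Cry1, chr10:85185085-85185164, minus strand: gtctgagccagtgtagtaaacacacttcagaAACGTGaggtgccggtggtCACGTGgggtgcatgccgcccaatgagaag
The single Rora window held none of the 7 motifs. Of 2 windows for Rorb, the first held none and the second held a CACGTT and a D-box. These are matches of letters in short windows, and elements outside them were not searched.

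Nr1d1 (Entrez Gene 217166, chr11:98767932-98775377, minus strand) and Nr1d2 (353187, chr14:18204056-18239106, minus strand) were transcribed in every library, including those whose genotype lacks both proteins. In normalized counts (counts scaled to the mean effective library size), Nr1d1 was at 3158 and 3146 in the pair labelled Cry/Per/Nr1d_KO, at 9337 and 9249 in the pair labelled Cry/Per_KO, and at 5359 and 4838 in Per/Nr1d_KO libraries. The 3 pairs did not overlap, and the pair labelled Cry/Per_KO was the highest. Nr1d2 was at 4881 and 5506, at 8262 and 8008, and at 5558 and 5717 in the same order. The Nr1d2 pair labelled Cry/Per_KO again stood above the other 4 libraries, which lay between 4881 and 5717.

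A gene was called changed where edgeR's quasi-likelihood test gave a Benjamini-Hochberg adjusted p under 0.05 and the log2 fold change exceeded 0.81 in size, the fold limit of the study. Nr1d1 was 2.95-fold higher in the pair labelled Cry/Per_KO than in the pair labelled Cry/Per/Nr1d_KO (log2 fold change 1.56, SE 0.053, edgeR adjusted p = 1.9e-12). In Per/Nr1d_KO cells it was 1.83-fold lower than in the pair labelled Cry/Per_KO (log2 fold change -0.87, SE 0.051, edgeR adjusted p = 3.2e-10), which passed the fold limit narrowly and did not pass it without Per/Nr1d_KO replicate 2 (log2 fold change -0.79). Its 1.61-fold higher level in Per/Nr1d_KO than in the pair labelled Cry/Per/Nr1d_KO was below the fold limit (log2 fold change 0.69, SE 0.053, edgeR adjusted p = 1.1e-08). Nr1d2 differed less. Its log2 fold changes were 0.65 (SE 0.055) for the pair labelled Cry/Per_KO against the pair labelled Cry/Per/Nr1d_KO and -0.53 (SE 0.055) for Per/Nr1d_KO against the pair labelled Cry/Per_KO, with edgeR adjusted p of 4.7e-08 and 2.8e-07, and neither reached the fold limit. Per/Nr1d_KO cells and the pair labelled Cry/Per/Nr1d_KO, the 2 groups labelled as lacking NR1D, differed in Nr1d2 by 0.12 (SE 0.055, edgeR adjusted p = 0.061), which became 0.035 without Cry/Per/Nr1d_KO replicate 1 and 0.21 without replicate 2 (edgeR adjusted p = 0.58 and 0.0029). With exchanged labels, the highest Nr1d1 and Nr1d2 levels would belong to the Cry/Per/Nr1d_KO line and the lowest Nr1d1 level to the Cry/Per_KO line.

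**Figure D1:**
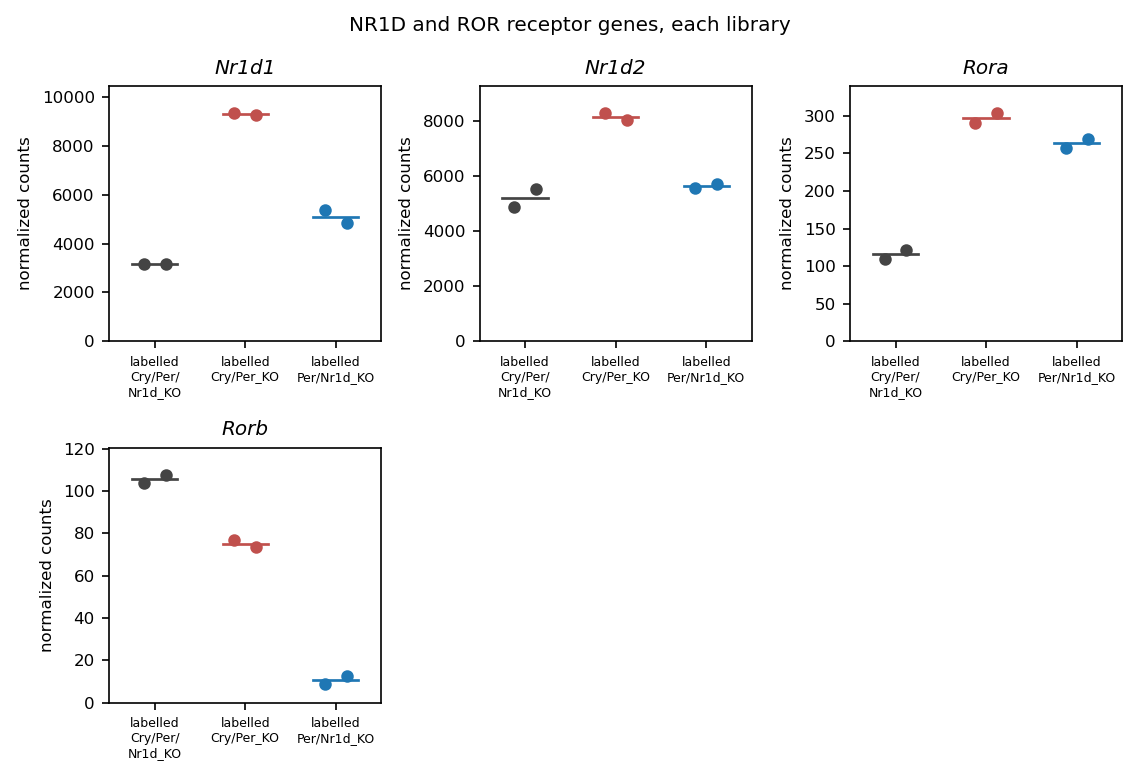
Normalized counts of Nr1d1, Nr1d2, Rora and Rorb in each of the 6 libraries, as points, with the mean of each pair as a line, on a vertical axis that starts at 0 for every gene. Nr1d1, Nr1d2 and Rora were highest in the pair labelled Cry/Per_KO, and Rorb was lowest in Per/Nr1d_KO libraries.

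Rora (19883, chr9:68653404-69388246, plus strand) encodes the ROR known from cerebellum and peripheral clocks. It was at 110.1 and 121.1 normalized counts in the pair labelled Cry/Per/Nr1d_KO, at 290.5 and 303.4 in the pair labelled Cry/Per_KO, and at 257.3 and 269.9 in Per/Nr1d_KO libraries. The pair labelled Cry/Per/Nr1d_KO stood apart at the low end, and the other 4 lay near each other without overlap of the pairs. Rora was 2.58-fold higher in the pair labelled Cry/Per_KO (log2 fold change 1.37, SE 0.12, edgeR adjusted p = 8.7e-08) and 2.29-fold higher in Per/Nr1d_KO cells (log2 fold change 1.20, SE 0.12, edgeR adjusted p = 3.6e-07) than in the pair labelled Cry/Per/Nr1d_KO. Both comparisons share the pair labelled Cry/Per/Nr1d_KO. Between Per/Nr1d_KO cells and the pair labelled Cry/Per_KO the difference was -0.17 (SE 0.11, edgeR adjusted p = 0.16). With exchanged labels, Rora would be lowest in the Cry/Per_KO line, and the sextuple and the Per/Nr1d_KO lines would be the near pair.

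Among the 3 receptor genes in the main test, 2 (Nr1d1 and Rora) were called higher in the pair labelled Cry/Per_KO than in the pair labelled Cry/Per/Nr1d_KO, where 16.8% of all 11934 genes tested were called, 7.86% higher and 8.95% lower. Rora was the only one of the 3 called between Per/Nr1d_KO cells and the pair labelled Cry/Per/Nr1d_KO, where 20.7% of genes were called, 11.3% higher and 9.35% lower. Nr1d1 was the only one called between Per/Nr1d_KO cells and the pair labelled Cry/Per_KO, where 29.0% of genes were called, 15.2% higher and 13.8% lower. Most genes passed the adjusted p without the fold limit (76.4%, 75.8% and 82.1% in the 3 comparisons, and 72.1%, 72.0% and 78.2% at a mean of at least 10), so a low p alone does not set a gene apart here. The share of all genes whose pairs of libraries did not overlap is not given, so separate pairs do not set a gene apart either. A change in the share of cells that transcribe a gene and a change in RNA per cell cannot be told apart in these bulk libraries.

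Rorb (225998, chr19:18930609-19111196, minus strand), best known from retina and brain, was low, and Per/Nr1d_KO cells differed from the other lines in it by more than in the other 3 genes. Between the other 2 groups it differed least of the 4. Raw counts were 117 and 97 in the pair labelled Cry/Per/Nr1d_KO, 69 and 75 in the pair labelled Cry/Per_KO, and 7 and 16 in Per/Nr1d_KO libraries, or 103.9 and 107.7, 76.8 and 73.6, and 8.87 and 12.6 normalized counts. Both Per/Nr1d_KO libraries lay far below the other 4. The mean over the 6 libraries was below 100, so Rorb was tested in the fit of the 14770 genes with a mean of at least 10, where 22.4%, 26.5% and 33.8% of genes were called in the 3 comparisons, 10.5%, 13.4% and 17.0% higher and 11.9%, 13.1% and 16.8% lower. In that fit Rorb was called lower in Per/Nr1d_KO cells than in the pair labelled Cry/Per/Nr1d_KO (log2 fold change -3.23, SE 0.26, edgeR adjusted p = 1.8e-09) and than in the pair labelled Cry/Per_KO (log2 fold change -2.74, SE 0.28, edgeR adjusted p = 3.9e-08). The ratios of summed counts were 9.44 and 6.72, with 95% exact binomial intervals, which cover counting error only, of 6.13 to 15.2 and 4.31 to 10.9. Between the pair labelled Cry/Per_KO and that labelled Cry/Per/Nr1d_KO the log2 difference was -0.49 (SE 0.18, edgeR adjusted p = 0.020), within the fold limit. The low level of Rorb in Per/Nr1d_KO cells therefore holds under either reading of the labels.

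**Figure D2:**
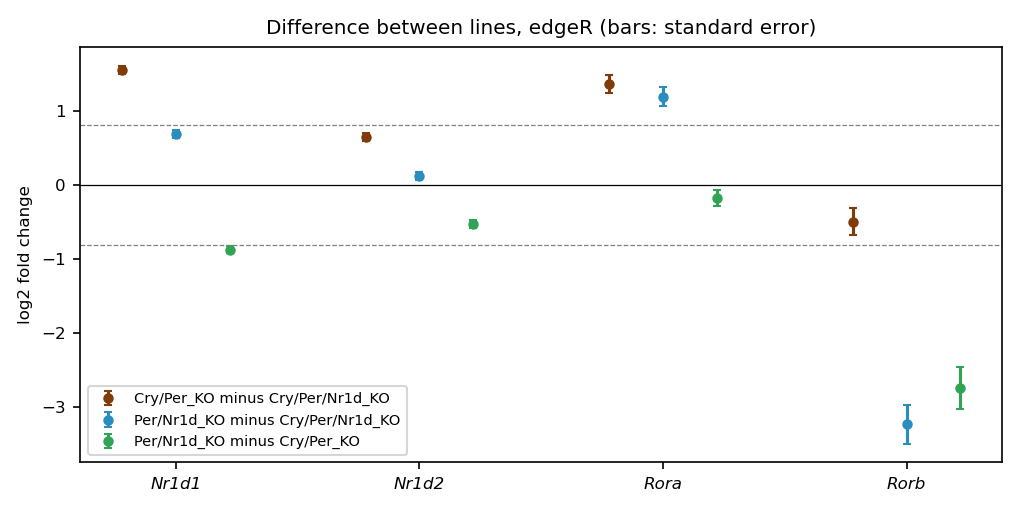
Log2 fold change of each receptor gene in the 3 comparisons between lines as labelled, with standard errors as bars and the fold limit of 0.81 as dashed lines. Rorb, from the fit with the lower expression limit, reaches -3.23 in Per/Nr1d_KO cells against the pair labelled Cry/Per/Nr1d_KO, while Rora lies at 1.20.

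Which receptor transcripts were present was compared between genes per length of exon, as FPKM (counts per kilobase of the union of annotated exons, scaled to the effective library size). Nr1d1 was at 15.5 ± 0.041 FPKM (SD, n = 2) in the pair labelled Cry/Per/Nr1d_KO, 45.8 ± 0.31 in the pair labelled Cry/Per_KO and 25.1 ± 1.82 in Per/Nr1d_KO libraries. Nr1d2 was at 14.6 ± 1.24, 22.8 ± 0.50 and 15.8 ± 0.31 FPKM. The 2 NR1D genes did not differ beyond their spread in the pair labelled Cry/Per/Nr1d_KO, and Nr1d1 was above Nr1d2 in the other 2 groups, at 66.8% ± 0.34 and 61.3% ± 2.19 of their summed FPKM.

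Rora and Rorb stood far lower. Rora was at 0.134 ± 0.0090 FPKM in the pair labelled Cry/Per/Nr1d_KO, 0.345 ± 0.011 in the pair labelled Cry/Per_KO and 0.306 ± 0.010 in Per/Nr1d_KO libraries. Rorb was at 0.145 ± 0.0037, 0.103 ± 0.0031 and 0.0147 ± 0.0036 FPKM. In the pair labelled Cry/Per/Nr1d_KO these 2 genes were thus at similar levels, with Rorb the higher in both libraries by little more than their spread. In the other 2 groups Rora was the higher, and the gap was widest in Per/Nr1d_KO libraries.

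Rora accounted for 48.0% ± 1.03 of the summed FPKM of Rora and Rorb in the pair labelled Cry/Per/Nr1d_KO, 77% ± 1.07 in the pair labelled Cry/Per_KO and 95.4% ± 0.93 in Per/Nr1d_KO libraries. The ratio of Rora to Rorb was 0.925, 3.35 and 21.3. The sum of both moved much less than this ratio, from 0.279 ± 0.013 FPKM to 0.448 ± 0.0076 and 0.321 ± 0.014. In Per/Nr1d_KO cells, whose labels and counts name the same line, the transcript of these 2 genes present without NR1D protein was therefore mostly Rora. In the sextuple knockout it was mainly Rora by the names of the counts, or a near equal mixture of Rora and Rorb by the genotype labels. The directions the study reports for Arntl, Cry1, Nr1d1, Nr1d2 and Dbp go with the names of the counts, as said above.

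The sum of NR1D FPKM exceeded that of Rora and Rorb in every library. The ratio was 108.3 and 107.5 in the pair labelled Cry/Per/Nr1d_KO, 156.5 and 150.2 in the pair labelled Cry/Per_KO, and 135.2 and 120.7 in Per/Nr1d_KO libraries. The pair labelled Cry/Per/Nr1d_KO lay below the other 4 libraries, and the other pairs did not overlap. Among the 17376 genes ranked by FPKM, Nr1d1 was at percentiles 79.3, 94.7 and 86.8, Nr1d2 at 78.1, 86.7 and 79.0, Rora at 28.8, 35.0 and 34.0, and Rorb at 29.2, 29.1 and 18.9. These are RNA ratios, and in the groups without NR1D protein they do not describe the proteins at the element.

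**Figure D3:**
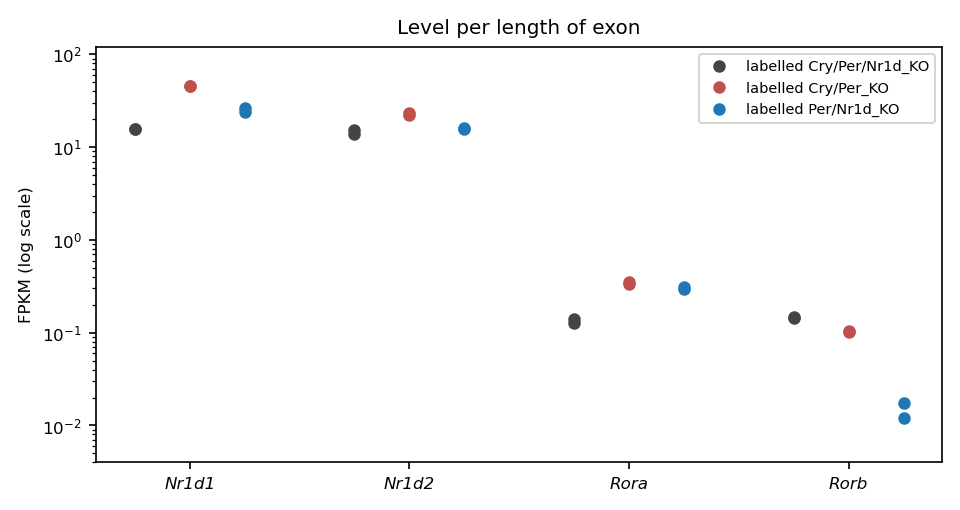
FPKM of the 4 receptor genes in each library on a log axis, with 2 points per group. Nr1d1 and Nr1d2 lie between 13.7 and 46.1 FPKM, Rora between 0.128 and 0.352, and Rorb falls to a mean of 0.0147 FPKM in Per/Nr1d_KO libraries.

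Genes beside the receptors on their chromosomes were examined, since whole chromosomes were shifted between these lines. On chromosome 9, which holds Rora, the median log2 fold change of tested genes was 0.38 for the pair labelled Cry/Per_KO against the pair labelled Cry/Per/Nr1d_KO, -0.46 for Per/Nr1d_KO against the latter and -0.84 for Per/Nr1d_KO against the pair labelled Cry/Per_KO. The 6 tested neighbours of Rora (Tpm1, Tln2, Vps13c, Ice2, Anxa2 and Bnip2) were all at negative values in Per/Nr1d_KO against the pair labelled Cry/Per/Nr1d_KO, from -0.78 to -0.19, where Rora was at 1.20. In the comparison of the pair labelled Cry/Per_KO with that labelled Cry/Per/Nr1d_KO, 5 of these 6 were at positive values, up to 0.90 for Vps13c, beside 1.37 for Rora. After subtraction of the chromosome median, Rora in Per/Nr1d_KO against the pair labelled Cry/Per_KO turned from -0.17 to 0.67.

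On chromosome 14, which holds Nr1d2, the medians were -0.065, 0.52 and 0.62 in the same order. All 6 tested neighbours of Nr1d2 (Oxsm, Ngly1, Top2b, Rpl15, Nkiras1 and Ube2e1) were at positive values in Per/Nr1d_KO against the pair labelled Cry/Per/Nr1d_KO, from 0.17 to 0.95, where Nr1d2 was at 0.12. With the chromosome median subtracted, Nr1d2 in Per/Nr1d_KO was at -0.40 against those libraries and at -1.15 against the pair labelled Cry/Per_KO, which is past the fold limit. The medians of chromosome 11 around Nr1d1 (0.037, 0.0075 and -0.032) and of chromosome 19 around Rorb (0.016, 0.23 and 0.22) were small beside the called differences of these genes. Thra, whose exons overlap 8.55% of the Nr1d1 exon bases on the opposite strand, was at 0.20, 0.52 and 0.32, and the strand setting of the counting is not given in the sources used here. The part of these chromosome shifts in the receptor levels was not tested.

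**Figure D4:**
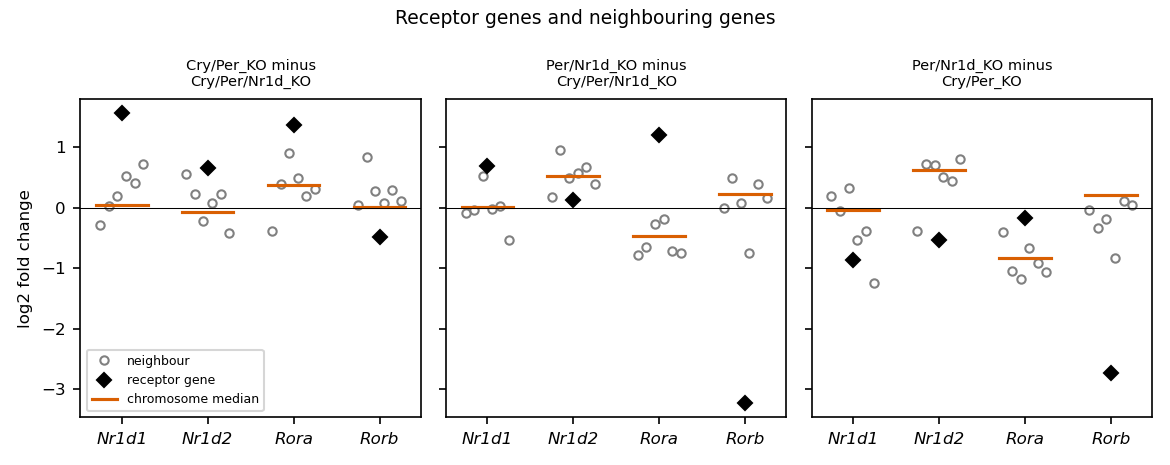
Log2 fold changes of Nr1d1, Nr1d2, Rora and Rorb (diamonds), of the 3 nearest tested genes on either side of each (circles), and the median of all tested genes on the same chromosome (orange lines), in the 3 comparisons as labelled. In Per/Nr1d_KO against the pair labelled Cry/Per/Nr1d_KO, Rora at 1.20 stands above all 6 neighbours and Nr1d2 at 0.12 below all 6 of its own.

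RORE target genes, on which NR1D and ROR act in opposite directions, were read beside the receptors. Of the 10 listed, 5 were abundant enough for the main test. Npas2 was among these only through its high level in Per/Nr1d_KO libraries, so its calls in those cells are not counted. Against the pair labelled Cry/Per/Nr1d_KO, 2 of 5 (Arntl and Cry1) were called higher in the pair labelled Cry/Per_KO, beside 7.86% of all genes tested. Arntl and Nfil3 were called higher in Per/Nr1d_KO cells, beside 11.3%. None was called lower in either comparison. In the first of these comparisons the median of the 5, with Npas2 included, was 0.58, where that of all genes tested was -0.0033. For Per/Nr1d_KO cells no median is given, because Npas2 would enter it. There Arntl was at 1.07, Nfil3 at 1.03, Cry1 at -0.13 and Clock at -0.40, beside a median of 0.011 over all genes tested. Between Per/Nr1d_KO cells and the pair labelled Cry/Per_KO, Cry1 was called lower, beside 13.8% of all genes. Cry1 was at -1.79, Clock at -0.44, Arntl at 0.17 and Nfil3 at 0.45 there, beside a median of 0.035 over all genes.

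Arntl, which encodes BMAL1 and holds a RORE in the window printed above, was at 1192 and 1171 normalized counts in the pair labelled Cry/Per/Nr1d_KO, 2176 and 2208 in the pair labelled Cry/Per_KO, and 2493 and 2455 in Per/Nr1d_KO libraries. The first pair was the lowest and the other 2 pairs did not overlap, as with Rora but with the last pair highest. Nfil3, which encodes the D-box repressor E4BP4 and also held a RORE, was at 2245 and 2164, 3183 and 3401, and 4559 and 4456, so the pairs were stepped. It was 2.04-fold higher in Per/Nr1d_KO cells than in the first pair (log2 fold change 1.03, SE 0.053, edgeR adjusted p = 8.0e-11).

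Cry1 differed from these. It was at 1698 and 1724, 5323 and 5478, and 1535 and 1592 normalized counts, so that only the pair labelled Cry/Per_KO was high. Cry1 is itself knocked out in 2 of the 3 lines, and its counts cover what is transcribed from the locus. Npas2, a paralog of Clock, was at 49.7 and 41.1, 64.6 and 67.7, and 312 and 260 normalized counts. It reached the mean needed for the main test only through Per/Nr1d_KO libraries, so its call in those cells is not given. Clock was not called in any of the 3 comparisons, with log2 fold changes of 0.045, -0.40 and -0.44.

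**Figure D5:**
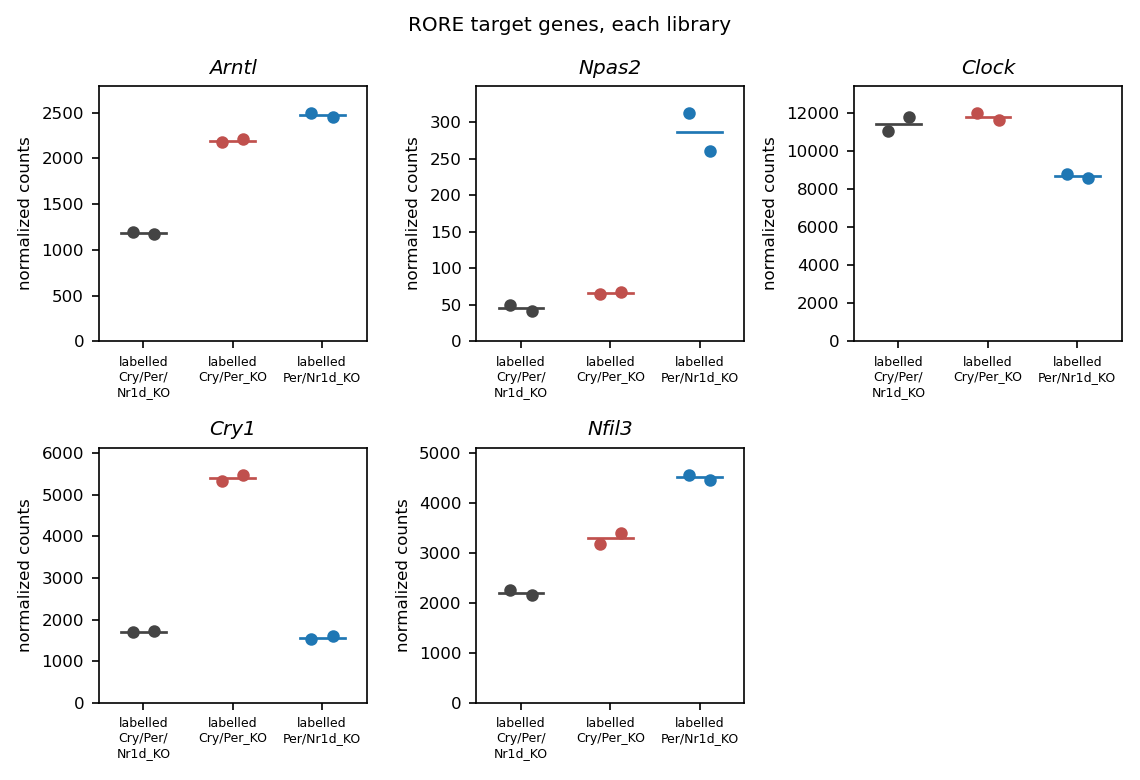
Normalized counts of the 5 RORE target genes in the main test in each of the 6 libraries, as points, with the mean of each pair as a line. Arntl was low in the pair labelled Cry/Per/Nr1d_KO only, Cry1 was high in the pair labelled Cry/Per_KO only, and Npas2 was high in Per/Nr1d_KO libraries only. The counts of the first 2 groups are each named for the other line, so the low Arntl pair carries the name of the line without Cry and Per.

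The other 5 listed targets were below the limit of the main test. Apoc3 and G6pc, genes of liver, had 0 counts in every library, which allows at most 3 counts per library. Fabp7, a fatty acid binding protein with a RORE in its window, was at 6.21 and 3.33, 11.1 and 8.84, and 64.6 and 63.1 normalized counts. Its Per/Nr1d_KO pair stood above the other 4 libraries, as for Npas2. Apoa1, an apolipoprotein gene, was at 6.21 and 3.33, 6.68 and 4.91, and 1.27 and 1.58 in the same order, so that its Per/Nr1d_KO pair was the lowest. Elovl3, a fatty acid elongase, was at 31.9 ± 2.65, 17.3 ± 2.27 and 25.2 ± 5.55 normalized counts (SD, n = 2).

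The wider set of genes with either RORE form in a promoter window is given as a description, without a test. Of 553 such genes in the main test, 7.96% were called higher and 9.04% lower in the pair labelled Cry/Per_KO than in the pair labelled Cry/Per/Nr1d_KO, beside 7.69% and 8.49% of the 9352 tested genes with a window. In Per/Nr1d_KO cells against the same libraries, 13.6% were called higher and 8.86% lower, beside 10.8% and 8.79%. Against the pair labelled Cry/Per_KO, 17.7% were called higher and 13% lower in Per/Nr1d_KO cells, beside 14.6% and 13.3%. The medians of the 553 in the 3 comparisons were -0.0096, 0.047 and 0.103, beside -0.0073, 0.014 and 0.0415. For the 207 genes with TAGGTCA, the form in the printed targets, the shares called higher in the 3 comparisons were 8.21%, 10.6% and 15.9%, beside 7.69%, 10.8% and 14.6%. Medians of the 207 were 0.022, 0.085 and 0.092.

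Regulators of Nr1d transcription, CLOCK and BMAL1 and their paralogs, the PAR bZIP activators and the D-box repressor encoded by Nfil3, were compared with the Nr1d levels. All 8 listed genes were tested, Npas2 only through its high level in Per/Nr1d_KO libraries. The shares of all genes called were those given above for the 3 comparisons. Arntl and Dbp, a PAR bZIP activator of D-boxes, were called higher in the pair labelled Cry/Per_KO than in the pair labelled Cry/Per/Nr1d_KO, as was Nr1d1. Dbp was at 692 and 731, 1675 and 1760, and 175 and 140 normalized counts, with Per/Nr1d_KO libraries lowest. In Per/Nr1d_KO cells all 3 PAR bZIP genes (Dbp, Tef and Hlf) were called lower than in the pair labelled Cry/Per/Nr1d_KO, with log2 fold changes of -2.20, -0.90 and -3.99. Arntl and Nfil3 were called higher. Nr1d1 was at 0.69 and Nr1d2 at 0.12 in that comparison. Against the pair labelled Cry/Per_KO, Dbp, Tef and Hlf were also called lower, at -3.47, -0.92 and -4.22. Arntl (0.17) and Nfil3 (0.45) were not called there, and Nr1d1 was at -0.87 and Nr1d2 at -0.53.

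None of 5 genes of the NR1D corepressor complex (Ncor1, Hdac3, Tbl1x, Tbl1xr1 and Gps2) was called in the 3 comparisons, where 16.8%, 20.7% and 29.0% of all genes were, and a list this short says little beside them. All 5 were tested, and their log2 fold changes ran from -0.46 to 0.41, from -0.36 to 0.11 and from -0.39 to 0.56. Among 8 ROR coregulators, 7 were tested. Ppargc1b, which encodes the coactivator PGC-1 beta, was at 414 and 425 normalized counts in the pair labelled Cry/Per/Nr1d_KO, 170.3 and 197 in the pair labelled Cry/Per_KO, and 39.3 and 20.5 in Per/Nr1d_KO libraries. The 3 pairs were separate, and the order was that of Rorb. Ppargc1b was called lower in all 3 comparisons, with a log2 fold change of -3.90 in Per/Nr1d_KO against the pair labelled Cry/Per/Nr1d_KO (SE 0.19, edgeR adjusted p = 3.5e-11). Ncoa1, the steroid receptor coactivator SRC-1, was called lower in Per/Nr1d_KO cells than in either other group, with log2 fold changes of -0.82 and -1.46, and the first of these was only just past the fold limit. Ppargc1a was below the limit of the main test, at 5.07 and 8.68 normalized counts in Per/Nr1d_KO libraries and between 32.4 and 79.9 in the other 4.

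Genes for NR1D turnover and for heme, the NR1D ligand, are read against the same shares of all genes, and these lists too are short. Of 7 turnover genes, Spsb4, a substrate receptor for NR1D1 ubiquitination, was called lower in the pair labelled Cry/Per_KO than in the pair labelled Cry/Per/Nr1d_KO (log2 fold change -0.94, SE 0.16, edgeR adjusted p = 6.6e-05), and no other call was made. Of 9 genes of heme synthesis and degradation, Fech, which inserts the iron of heme, was called lower in Per/Nr1d_KO cells than in the pair labelled Cry/Per_KO, with a log2 fold change of -0.91. None of the 9 was called in the other 2 comparisons.

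The patterns nearest to each receptor over the 6 libraries were found by the Euclidean distance between mean-centred log2 CPM values. For Nr1d1 they were those of Nod2, Serpini1 and Sema3c, at distances of 0.131, 0.133 and 0.168, with 87 genes within 0.5. Rora was nearest to Apba1, Ctso and Tmem106b, at 0.176, 0.222 and 0.222, with 82 genes within 0.5. For Rorb, Flrt2, Prkg2 and Ppm1e were nearest, at 0.309, 0.374 and 0.395, and only 7 genes lay within 0.5. Nr1d2, whose levels varied least, had 1471 genes within 0.5, the nearest being Zfp369, Krit1 and Isca2. The distances rest on 3 pairs of libraries and describe likeness only.

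The libraries held between 53764390 and 85927236 counts, and the biological coefficient of variation was 0.0393. Of 10 fibroblast markers, 8 to 9 reached 1 CPM in both libraries of each group, Thy1 being below it in all and Dcn in the pair labelled Cry/Per_KO. Their summed level was 14388 to 15152 CPM in the pair labelled Cry/Per/Nr1d_KO, 13164 to 13489 in the pair labelled Cry/Per_KO and 26009 to 26277 in Per/Nr1d_KO libraries. The members moved in opposite directions. Of the 8 tested, Col1a1, Col1a2, Col3a1 and Fn1 were called higher and Pdgfra, Pdgfrb, S100a4 and Vim lower in Per/Nr1d_KO cells than in the pair labelled Cry/Per/Nr1d_KO. Over all genes tested, 11.3% were called higher and 9.35% lower there, and the median log2 fold change of the 8 was 0.021. Against the pair labelled Cry/Per_KO, 3 were called higher and 3 lower, beside 15.2% and 13.8%. Between the other 2 groups, Col3a1 and S100a4 were called lower in the pair labelled Cry/Per_KO, beside 8.95%. Of 7 markers of other cell types, 1 to 2 reached 1 CPM, with Tubb3, a neuronal tubulin, in all groups and Cdh1 in Per/Nr1d_KO cells, and Myod1 was at 0 in both libraries of each group but the pair labelled Cry/Per/Nr1d_KO. Their summed level was 28.4 to 30.6, 6.14 to 6.20 and 12.2 to 12.4 CPM. Most of this sum was Tubb3, at means of 1868, 358 and 669.6 normalized counts, while Cdh1 was at 17.9, 9.98 and 105.3, and the order of the last 2 groups was opposite to that of Rorb. The part of these marker differences in the receptor levels was not tested.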

How the data were processed

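Poly-A RNA of the 3 MEF lines was sequenced by the authors from stranded libraries as single-end reads of 50 bases, mapped to mm10 with STAR and counted per gene with featureCounts. The deposited count files hold raw counts per Entrez Gene ID, 1 file per library, with no normalization. DESeq2 1.22.2 tables that the authors also deposited hold their fold changes and p-values relative to Cry/Per/Nr1d_KO cells and were not used.

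Symbols and positions came from RefSeq (GRCm38.p6, the assembly of mm10; 25275 of 27179 IDs matched) and exon lengths from GENCODE vM21. Of 71 listed genes, 70 were found, and some results are not reported here. The analysis used edgeR 4.0.16 and DESeq2 1.42.0 in R 4.3.3. Genes averaging at least 100 normalized counts entered one edgeR quasi-likelihood fit of 3 groups with TMM normalization, and p-values were adjusted over all 11934 genes tested (Benjamini-Hochberg). Rorb was taken from the alternative fit with a mean of at least 10. The scripts were tested on simulated data. SEs are the log2 fold change divided by the square root of F.

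The members and gene lists were chosen with earlier results of these data known. The genes named are the 4 members, the called genes of each list, the 3 genes of nearest pattern and the 3 tested neighbours on either side. Some uncalled list genes were named after their values were seen. Alternatives were DESeq2, the study's criteria, other size factors and filters, no fold limit, glmTreat, only the groups compared, a replicate block, each library left out, exchanged labels, chromosome medians subtracted, and the longest transcript as length. The planned comparison of protein sequences was not made. With 2 preparations of 1 line per group, p-values measure the spread between preparations of these lines.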

Additional observations from a re-analysis of the deposited data

How the results depend on the processing

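With the labels of the Cry/Per_KO and Cry/Per/Nr1d_KO pairs exchanged, the log2 fold changes for Cry/Per_KO minus Cry/Per/Nr1d_KO, Per/Nr1d_KO minus Cry/Per/Nr1d_KO and Per/Nr1d_KO minus Cry/Per_KO became -1.56, -0.87 and 0.69 for Nr1d1, -0.65, -0.53 and 0.12 for Nr1d2, -1.37, -0.17 and 1.20 for Rora, and 0.49, -2.74 and -3.23 for Rorb. The ratios per length changed places between these 2 groups (NR1D to Rora and Rorb 153 and 108, Nr1d1 66.8% and 51.7%, Rora 77% and 48.0%). Without a fold limit, Nr1d1 (0.69) and Rorb (-0.49, for the labelled Cry/Per_KO pair) were called, as was Nr1d2 at 0.65 and -0.53. With chromosome medians subtracted, Nr1d2 turned to -0.40 and -1.15 in Per/Nr1d_KO, and Rora to 0.67 against the pair labelled Cry/Per_KO. The study's criteria (DESeq2, adjusted p limit of 1e-22) did not call Rora (1.37 and 1.19) or Rorb (-3.27 and -2.78). The glmTreat test against the fold limit did not call Nr1d1 at -0.87 (adjusted p = 0.16). Leaving out each library gave -0.94 to -0.79 for Nr1d1 in Per/Nr1d_KO minus Cry/Per_KO, and the other receptor calls did not change. The cause of these changes was not tested.

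The counts of genes called were 2006, 2468 and 3457. They became 1149, 1803 and 2592 under the study's criteria, and 3808, 4576 and 5590 without a filter. They were 3311 and 3912 for the first 2 with a mean of at least 10, and 9118, 9042 and 9793 without a fold limit. All these counts are for the groups as labelled. With exchanged labels, the counts of the 2 comparisons with Per/Nr1d_KO cells change places. With the longest transcript as length, the ratios of NR1D to Rora and Rorb were 103, 146 and 122, and Nr1d1 was 66.2% of NR1D in the pair labelled Cry/Per_KO. Replicate numbers did not pair the samples (correlations of deviations -0.21, -0.10 and -0.024), and a replicate block, with which Nr1d1 was at 1.56 and Rora at 1.36 in the first comparison, changed no receptor call and gave 2002, 2468 and 3457 genes. Rorb rests on 7 to 117 counts per library.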

Other observations

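Enzymes that make or remove sterol ligands of RORs were read beside the receptors, and Ch25h and Cyp7b1 had the widest range of levels among them. Of 7 listed, 4 were tested. Ch25h, which makes 25-hydroxycholesterol, was at 6.21 and 7.77 normalized counts in the pair labelled Cry/Per/Nr1d_KO, 35.6 and 38.3 in the pair labelled Cry/Per_KO, and 3154 and 2948 in Per/Nr1d_KO libraries. Cyp7b1, which hydroxylates oxysterols and is a known target of RORA in liver, was at 3.55 and 6.66, 1.11 and 0, and 3648 and 3817. The Per/Nr1d_KO pair stood far above the other 4 libraries for both genes, under either reading of the labels. Both genes reached the mean needed for the main test only through these Per/Nr1d_KO libraries, so their calls are not given. Raw counts of Ch25h were 7 and 7 in the pair labelled Cry/Per/Nr1d_KO and 32 and 39 in the pair labelled Cry/Per_KO. Those of Cyp7b1 were 4 and 6 against 1 and 0, too few for a fold. Cyp27a1, below the limit of the main test, was at 36.8 and 59.2 in Per/Nr1d_KO libraries and at 0.98 to 5.56 in the other 4.

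Genes of late cholesterol synthesis followed another order. Cyp51 was at 14442 ± 460 normalized counts (SD, n = 2) in the pair labelled Cry/Per/Nr1d_KO, 5343 ± 143 in the pair labelled Cry/Per_KO and 7070 ± 122 in Per/Nr1d_KO libraries. Dhcr7, a reductase of the pathway, was called lower with Cyp51 in the pair labelled Cry/Per_KO than in the pair labelled Cry/Per/Nr1d_KO, with log2 fold changes of -1.81 for Dhcr7 and -1.43 for Cyp51. With exchanged labels these 2 genes would be higher in the Cry/Per_KO line. Sterol levels were not measured.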
